A study of Rattus norvegicus with 63 samples.

Results

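The comparison described here sets the kidney of rats killed 4 h after methylprednisolone, an injected synthetic glucocorticoid, against the kidney of untreated rats. It was chosen by the array titles: the 3 arrays of the main array type titled 4 h and the 4 arrays of that type titled 0 h, which are 7 of the 53 arrays of the main type and of the 63 samples of the series. Every probe set of the array was considered, a probe set being the group of short probes that together measure 1 transcript.

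The series followed the rat kidney after methylprednisolone over 17 times, from 0 h (no injection) to 72 h, with total RNA of whole kidney on Affymetrix arrays. The 0 h group received no injection according to the labels, so it is an untreated group and not a group injected with the vehicle, and it exists at 0 h only. The 4 h group received methylprednisolone and was killed 4 h later. The labels used here give no dose, route, strain, sex, age, hour of day or adrenal status for either group, and they do not say whether the numbered samples are separate animals or pools. The p-values below therefore rest on how far these samples differ among themselves, and part of that may be technical. Time since the injection and hour of day cannot be told apart. In RNA of a whole organ, fewer cells of a type and less RNA per cell also cannot be told apart.

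Glucocorticoids cross the cell membrane and bind the glucocorticoid receptor (Nr3c1), which then enters the nucleus and raises or lowers the transcription of its target genes. Well known targets encode inhibitors of inflammatory signalling (Nfkbia, Tsc22d3, Dusp1, Zfp36), the receptor's own co-chaperone (Fkbp5), the clock gene Per1 and, in the kidney, the kinase Sgk1 and the sodium channel subunit Scnn1a. The kidney is also a site of gluconeogenesis and of amino acid breakdown, which glucocorticoids promote in several organs.

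The deposited value of a probe set is an intensity, called signal below, which the authors had scaled to nearly the same trimmed mean on each array. Differences are 4 h minus 0 h on the scale log2(signal + 7.63), where 7.63 is the 10th percentile of all values, so they understate the change of dim genes. Mean signals were taken back from this scale. The array median signal was 78.1, 75.2, 78.2 and 78.2 at 0 h and 75.8, 65.6 and 73.0 at 4 h. The value of 65.6, in 4 h replicate 2, was the lowest of all arrays of the main type. Log2 values of libraries correlated across probe sets with r from 0.944 to 0.971 within 0 h, from 0.936 to 0.974 within 4 h and from 0.855 to 0.922 between the groups, where probe sets are not independent. Kidney markers were bright in both groups: Slc34a1, the sodium-phosphate cotransporter of the proximal tubule, lay between 3740 and 5160 at 0 h and between 3676 and 4281 at 4 h, and Umod, the uromodulin gene of the thick ascending limb, between 2933 and 3343 and between 3015 and 3844.

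At 4 h, 544 of 9520 probe sets tested were higher than at 0 h, which is 5.71%, and 736 were lower, which is 7.73% (limma, Benjamini-Hochberg adjusted p under 0.05). Counted by gene, with the brightest probe set standing for each of 7106 genes, 432 rose (6.08%) and 516 fell (7.26%). The rises were the larger changes. The median rise was 0.91, 237 rises exceeded 2-fold, 57 exceeded 4-fold and 21 exceeded 8-fold. The median fall was -0.7, 109 falls exceeded 2-fold, 3 exceeded 4-fold and 0 exceeded 8-fold. All 4 h libraries lay above all 0 h libraries for 1173 probe sets (12.3% of those tested), and all lay below for 1515 (15.9%). Among those called, 531 of the 544 and 622 of the 736 had no overlap between the groups.

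The balance between rises and falls depended on the scaling. As deposited, 42.5% of the calls were higher. Centring each array on its median moved the median difference of all probe sets tested by 0.11, from -0.07 to 0.03, and 63.9% of 1126 calls were then higher. With quantile normalization 47.2% of 1046 calls were higher. The number of calls also depended on 4 h replicate 2: without it 268 probe sets were higher and 206 lower, against 543 and 970 leaving out 4 h replicate 1, 354 and 438 leaving out 4 h replicate 3, and 438 and 455 leaving out 0 h replicate 3. Of the 1280 probe sets called with all libraries, 472 were among the 474 called without 4 h replicate 2.

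**Figure D1:**
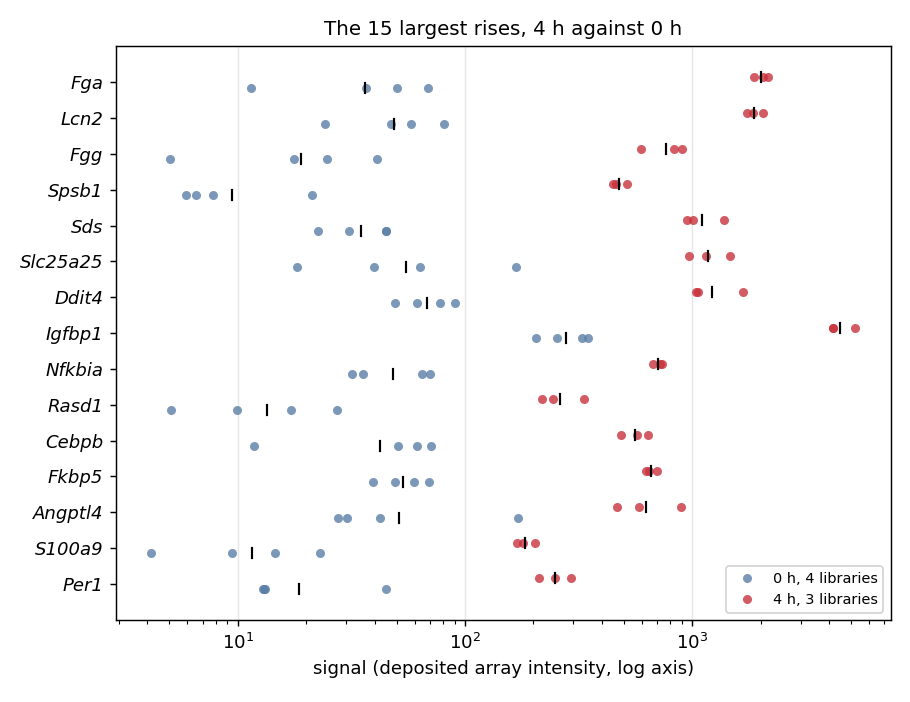
Signals of the 15 genes with the largest rises at 4 h, on a log axis; each point is 1 library (blue, 0 h; red, 4 h) and black ticks are group means. In every row the 3 libraries at 4 h lie to the right of the 4 at 0 h, with Fga at 1863 to 2149 against 11.4 to 68.5.

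Most of the known glucocorticoid-induced genes rose. Of 29 such genes tested, 26 rose and 0 fell, with a median difference of 2.54, while the median over all genes tested was -0.05. The list was made with earlier results of these data known and holds Lcn2, Sds, Sult1a1 and Usp2 for that reason, so its count is not independent evidence of a direction. To be tested, a gene needed a mean signal of 52.3 over all libraries. Several members had lower means at 0 h, among them Rasd1 (13.4), Gadd45b (17.2), Per1 (18.5), Sds (34.7) and Nfkbia (48). These were tested only through libraries in which they were high, which also limits the count. Mt1 and Tat, also on the array, lay below the filter. Of the list, 28 had all 4 h libraries above all 0 h libraries, as had 954 of all 7106 genes tested, of which 432 rose. Leaving out 4 h replicate 2, 24 of the 29 passed.

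Fkbp5, the co-chaperone that lowers the hormone affinity of the glucocorticoid receptor, had signals of 49, 59.8, 69.3 and 39.5 at 0 h and of 645, 702 and 628 at 4 h. The groups were far apart and the 3 libraries at 4 h were close to each other. The difference was 3.45 ± 0.22 (SE, n = 4 and 3), or 10.9-fold, with a limma adjusted p = 1.67e-14. Per1, a core gene of the circadian clock that glucocorticoids are known to induce, had 12.9, 44.7, 13.2 and 13.1 at 0 h and 293, 211 and 248 at 4 h. All libraries at 4 h were above 0 h, where replicate 2 was the highest, and the difference was 3.29 ± 0.42 (adjusted p = 3.35e-07). Ddit4, an inhibitor of the growth kinase complex mTORC1, had 61.6, 77.7, 49.3 and 90.6 at 0 h and 1040, 1665 and 1059 at 4 h. The groups did not overlap, and the difference was 4.02 ± 0.42 (adjusted p = 5.09e-09). Klf9 (1.48 ± 0.22), Klf15 (1.3 ± 0.33), Cebpd (2.28 ± 0.55) and Cebpb (3.51 ± 0.66), which encode transcription factors, rose as well, and so did Mt2A, a metallothionein gene, from a mean signal of 3004 to 5818. The 3 members that missed the threshold were Pdk4, a kinase that inhibits pyruvate dehydrogenase (1.02, adjusted p = 0.0527), Nfil3, a repressor of clock output genes (1.73, adjusted p = 0.0542), and Glul, the glutamine synthetase gene (0.22, adjusted p = 0.346). Another probe set of Glul gave 0.47 with an adjusted p = 0.0181. Pdk4 passed with median centring, with an adjusted p = 0.0342.

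Several known brakes on inflammatory signalling rose, but not all. A list named for the restraint of NF-kappaB and MAP kinase signalling had 19 genes on the array, of which 13 were tested. It had 5 rises and 3 falls, with a median difference of 0.25, and its other tested members did not pass. Among all genes tested, 6.08% rose and 7.26% fell. The members that fell are not all brakes. Nfkbia, which encodes the inhibitor that holds NF-kappaB in the cytoplasm, had 35.7, 64.5, 31.7 and 70.1 at 0 h and 674, 736 and 724 at 4 h. The 4 h values lay within a narrow band far above 0 h (3.69 ± 0.49, adjusted p = 1.04e-06). Tsc22d3, the leucine zipper protein GILZ, rose from a mean of 286 to 1698 (2.54 ± 0.2), Dusp1, a phosphatase of MAP kinases, from 130 to 789 (2.53 ± 0.33), and Zfp36, which speeds the decay of cytokine mRNAs, from 180 to 779 (2.07 ± 0.35). Tnip1 passed with 0.66 (adjusted p = 0.00924) but had an adjusted p = 0.0863 without 4 h replicate 2. The members that fell were Tril, a co-receptor that promotes signalling of Toll-like receptors (-1.89 ± 0.42), Tnfaip8 (-1.63 ± 0.31) and Nlrp6, an inflammasome sensor (-1.48 ± 0.29). Tril had 166, 183, 139 and 265 at 0 h and 55.8, 30.5 and 48.9 at 4 h. Its groups did not overlap.

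Of 14 clock genes, 2 rose, Per1 and Usp2, and 0 fell, where 6.08% of all genes tested rose and 7.26% fell. Usp2, a deubiquitinase, had a mean of 134 at 0 h and 748 at 4 h (2.42 ± 0.42, adjusted p = 8.88e-05). Dbp, a clock output factor, had 143, 236, 200 and 153 at 0 h and 51.6, 82.6 and 76.5 at 4 h. Its groups did not overlap, but its difference of -1.29 ± 0.51 did not pass (adjusted p = 0.0809). Per2 (0.43), Bmal1 (-0.17), Clock (-0.35) and Nr1d1 (-0.05) did not pass.

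Enzymes of amino acid breakdown and of methyl and polyamine metabolism held single large rises. Of 41 genes, 7 rose and 4 fell, with a median difference of 0.08, where 6.08% of all genes tested rose and 7.26% fell. Sds, serine dehydratase, which turns serine into pyruvate and ammonia, had 44.9, 22.5, 44.7 and 30.9 at 0 h and 952, 1381 and 1010 at 4 h. The groups were far apart, and the difference was 4.71 ± 0.45, or 26.2-fold (adjusted p = 4.67e-10). Amd1, an enzyme of polyamine synthesis, had 262, 269, 243 and 236 at 0 h and 1576, 2484 and 1738 at 4 h (2.87 ± 0.24, adjusted p = 1.21e-11). Its replicate 2 was the highest at 4 h, and no library overlapped. Odc1, another enzyme of polyamine synthesis, rose by 1.71 ± 0.3, Got1, the cytosolic aspartate aminotransferase, by 1.41 ± 0.29, and Arg2, the mitochondrial arginase, by 1.06 ± 0.19. Ddc, which decarboxylates DOPA and produces dopamine in the proximal tubule, fell by 0.73 ± 0.18 (adjusted p = 0.00448). The counts were 5 and 1 without 4 h replicate 2 and 8 and 2 without 0 h replicate 2.

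Among 15 genes of gluconeogenesis and ammonia formation tested, 2 rose and 0 fell, with a median difference of -0.03. Over all genes tested, 6.08% rose and 7.26% fell. The 2 that rose in the list were Got1 and Foxo3. Foxo3, a transcription factor held back by insulin signalling, had 215, 276, 246 and 312 at 0 h and 849, 736 and 893 at 4 h. The groups did not overlap (1.64 ± 0.17, adjusted p = 5.09e-09). Pck1, the rate-limiting enzyme of gluconeogenesis, was bright in both groups, with 3442, 3355, 2873 and 3510 at 0 h and 3609, 4332 and 3733 at 4 h. All libraries at 4 h were the higher ones, but the difference of 0.24 ± 0.2 did not pass (adjusted p = 0.461).

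The 26 genes of glycolysis and of the pyruvate dehydrogenase switch held 1 rise and 5 falls, with a median difference of -0.01. Falls outnumbered rises over all genes tested as well, where 6.08% rose and 7.26% fell. Pdp2, a phosphatase that activates pyruvate dehydrogenase, had 405, 310, 285 and 262 at 0 h and 99.2, 81.6 and 83 at 4 h. The groups were well separated (-1.74 ± 0.27, adjusted p = 1.44e-05). Slc16a1, the lactate and pyruvate transporter MCT1, had 486, 356, 480 and 711 at 0 h and 221, 123 and 214 at 4 h (-1.41 ± 0.24, adjusted p = 5.55e-05), and Slc16a6, a related transporter, fell by 1.38 ± 0.23. The other calls were less stable. Pfkfb2 (-1.12, adjusted p = 0.00242), which makes an activator of glycolysis, had an adjusted p = 0.12 without 4 h replicate 2, its library with the lowest signal (18.3, against 72.1 and 46.9). In its absence 3 of the list fell and 0 rose.

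Single genes of triglyceride handling rose: of 30 genes of fatty acid oxidation and lipolysis, 3 rose and 2 fell, with a median of 0.18. As 6.08% of all genes tested rose and 7.26% fell, these few calls do not set the list apart. The same holds for the list of cholesterol and fatty acid synthesis below. Pnpla2, the triglyceride lipase ATGL, had 167, 227, 281 and 204 at 0 h and 789, 1057 and 775 at 4 h. The groups did not overlap (1.96 ± 0.15, adjusted p = 2.38e-12). Angptl4, an inhibitor of lipoprotein lipase, had 171, 30.3, 42.2 and 27.5 at 0 h, with replicate 1 the highest, and 466, 895 and 583 at 4 h (3.43 ± 0.91, adjusted p = 0.00954). Lpl, lipoprotein lipase itself, rose from a mean of 185 to 595 (1.65 ± 0.4, adjusted p = 0.00402). Without 4 h replicate 2, Angptl4 had an adjusted p = 0.0664 and Lpl one of 0.05, and 1 of the list rose and 0 fell. Insig1, which holds back cholesterol synthesis, rose from 109 to 446 (1.96 ± 0.37, adjusted p = 0.000282), among 23 genes of cholesterol and fatty acid synthesis, of which 1 rose and 2 fell, with a median of -0.19. The 2 were Srebf1, a transcription factor of lipid synthesis (-0.66, adjusted p = 0.0452), and Dhcr7, the last enzyme of cholesterol synthesis (-0.59, adjusted p = 0.0312). Neither call held without 4 h replicate 2 (adjusted p = 0.14 and 0.182), and 0 of the list fell leaving out 0 h replicate 3, 0 h replicate 4 or 4 h replicate 3.

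**Figure D2:**
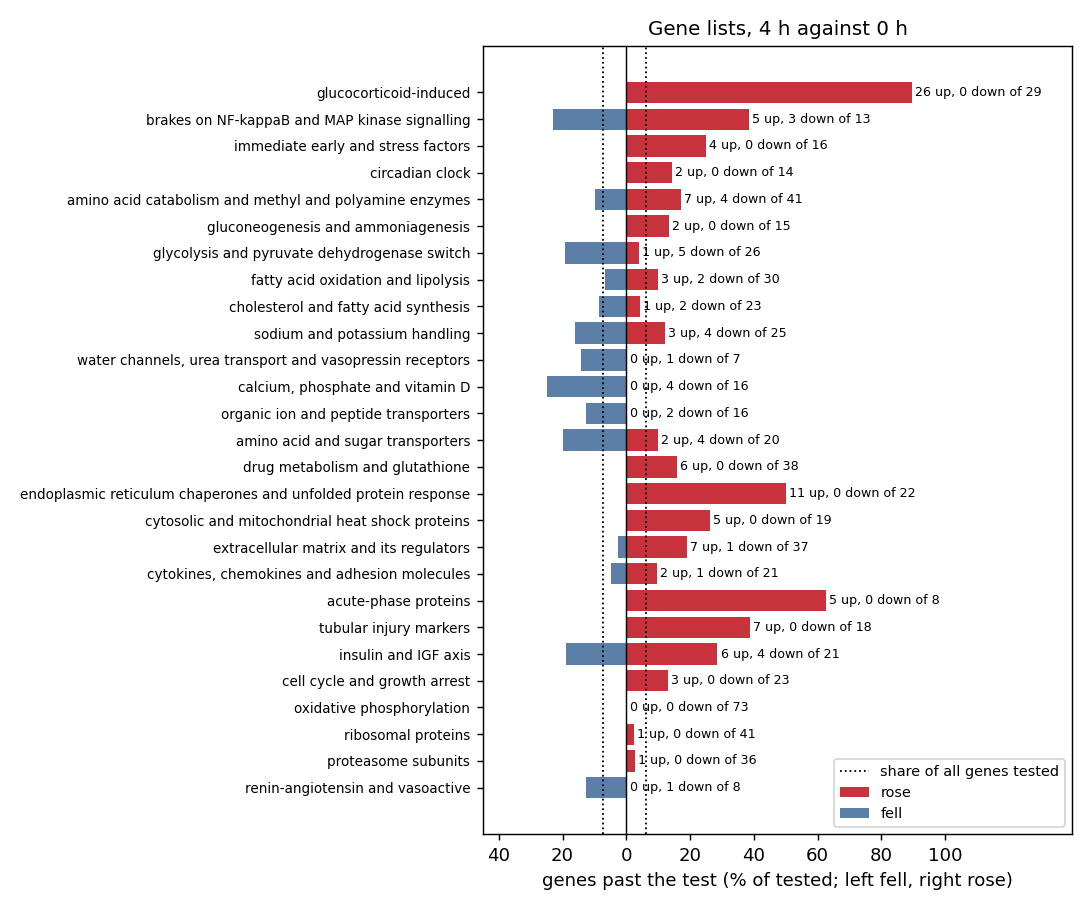
Share of the tested genes of each pathway list that passed the test, falls to the left and rises to the right, with dotted lines at the shares of all 7106 genes tested (6.08% rose, 7.26% fell). The lists of glucocorticoid-induced genes (26 of 29), acute-phase proteins (5 of 8) and endoplasmic reticulum chaperones (11 of 22) have the longest bars, and oxidative phosphorylation has none (0 of 73).

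Chaperones and quality control genes of the endoplasmic reticulum (ER) held many rises at 4 h. These genes belong to the unfolded protein response, in which a load of unfolded secretory proteins raises the chaperones that fold them and the machinery that removes them. Of 22 genes tested 11 rose and 0 fell, with a median difference of 0.69, and 17 had all 4 h libraries above all 0 h libraries. Among all 7106 genes tested, 6.08% rose, 7.26% fell and 954 had all 4 h libraries above all 0 h libraries. The count was 7 of the 22 without 4 h replicate 2.

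The promoters of several members are shown because the transcription factors of this response recognise a known pair of elements there. The ER stress element, written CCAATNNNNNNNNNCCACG, and the shorter ER stress element II, which is ATTGG, any base, then CCACG, were searched on both strands in a window of 250 bases before to 50 bases after the start site (RefSeq, assembly GRCr8). No promoter of the list held both elements. The 250 bases before the start are printed 5′ to 3′ on the strand of the gene, with the matched element in capitals, as its reverse complement where it lies on the other strand. They are Hspa5 (chr3:38452766-38453015, + strand), Hsp90b1 (chr7:23012294-23012543, - strand), Creld2 (chr7:121789134-121789383, + strand), Dnajc3 (chr15:102432417-102432666, + strand) and Herpud1 (chr19:10614708-10614957, - strand). The first 4 hold the ER stress element and Herpud1 the element II.
Hspa5: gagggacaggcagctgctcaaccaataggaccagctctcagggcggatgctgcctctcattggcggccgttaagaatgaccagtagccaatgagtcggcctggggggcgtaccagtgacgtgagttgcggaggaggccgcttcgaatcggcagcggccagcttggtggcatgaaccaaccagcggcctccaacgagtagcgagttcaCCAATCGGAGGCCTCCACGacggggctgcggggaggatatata
Hsp90b1: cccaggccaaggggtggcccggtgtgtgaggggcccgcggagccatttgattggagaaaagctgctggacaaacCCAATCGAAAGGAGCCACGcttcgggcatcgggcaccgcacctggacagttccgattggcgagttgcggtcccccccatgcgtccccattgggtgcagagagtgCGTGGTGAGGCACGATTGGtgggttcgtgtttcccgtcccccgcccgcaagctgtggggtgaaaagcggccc
Creld2: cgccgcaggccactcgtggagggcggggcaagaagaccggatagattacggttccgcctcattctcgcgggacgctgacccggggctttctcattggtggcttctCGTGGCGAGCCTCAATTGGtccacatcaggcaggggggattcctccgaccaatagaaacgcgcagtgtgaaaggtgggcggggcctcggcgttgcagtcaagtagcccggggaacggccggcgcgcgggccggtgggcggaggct
Dnajc3: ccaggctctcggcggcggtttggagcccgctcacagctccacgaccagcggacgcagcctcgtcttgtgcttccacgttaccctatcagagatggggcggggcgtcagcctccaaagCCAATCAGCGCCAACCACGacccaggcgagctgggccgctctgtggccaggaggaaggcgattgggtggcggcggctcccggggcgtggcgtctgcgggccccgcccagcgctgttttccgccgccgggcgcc
Herpud1: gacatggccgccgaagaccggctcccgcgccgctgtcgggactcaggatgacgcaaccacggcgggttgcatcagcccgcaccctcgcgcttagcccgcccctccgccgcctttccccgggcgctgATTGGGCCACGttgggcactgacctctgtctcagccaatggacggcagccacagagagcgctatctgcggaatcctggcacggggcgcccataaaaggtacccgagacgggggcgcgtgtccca

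The ER stress element was found in 7 of the 18 promoters of the list that are in the table (38.9%), against 13 of 5978 promoters of all genes tested (0.217%) and 21 of 27457 in the whole table (0.0765%). Among the 361 promoters of genes that rose, 4 held it (1.11%), and among the 434 of genes that fell, 0 did. The element II was found in 3 of the 18 (16.7%) and in 6 of the 5978 (0.1%). A match describes letters only, and members with an element were found on both sides of the threshold. Hspa5, Hsp90b1, Creld2, Dnajc3 and Herpud1 rose. Xbp1 (0.7, adjusted p = 0.0522), Calr (0.37, adjusted p = 0.121) and Canx (-0.02, adjusted p = 0.938), which hold the ER stress element, did not pass, nor did Dnajb11 (0.31, adjusted p = 0.221) and Hyou1 (0.57, adjusted p = 0.478), which hold the element II.

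Herpud1, a membrane protein of ER-associated degradation, had signals of 224, 333, 261 and 264 at 0 h and of 1587, 2169 and 1805 at 4 h. The groups were far apart (2.75 ± 0.25, or 6.71-fold, adjusted p = 6.25e-11). Edem1, which hands misfolded glycoproteins to degradation, had 271, 298, 269 and 272 at 0 h and 1420, 1541 and 1287 at 4 h. Both groups were tight and separate (2.32 ± 0.16, adjusted p = 3.03e-14). Hspa5, the main ER chaperone BiP, had 1019, 841, 766 and 735 at 0 h and 1973, 2904 and 1908 at 4 h, with replicate 2 the highest and no overlap (1.4 ± 0.31, adjusted p = 0.00184). Creld2 (1.82 ± 0.41), Dnajb9 (1.09 ± 0.27), Dnajc3 (1.06 ± 0.22) and Hsp90b1 (0.99 ± 0.25), all helpers of protein folding in the ER, rose as well. Manf (1.12, adjusted p = 0.0191), Pdia6 (0.68, adjusted p = 0.0179), P4hb (0.45, adjusted p = 0.0175) and Sdf2l1 (0.82, adjusted p = 0.0488) passed with all libraries. Their adjusted p-values were 0.116, 0.185, 0.15 and 0.129 without 4 h replicate 2. The call of P4hb was also lost without 0 h replicate 1 (adjusted p = 0.0505) or 4 h replicate 3 (0.0532), and that of Sdf2l1 without any single library of the 7. Ddit3, the stress factor CHOP, did not pass (0.55, adjusted p = 0.101).

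**Figure D3:**
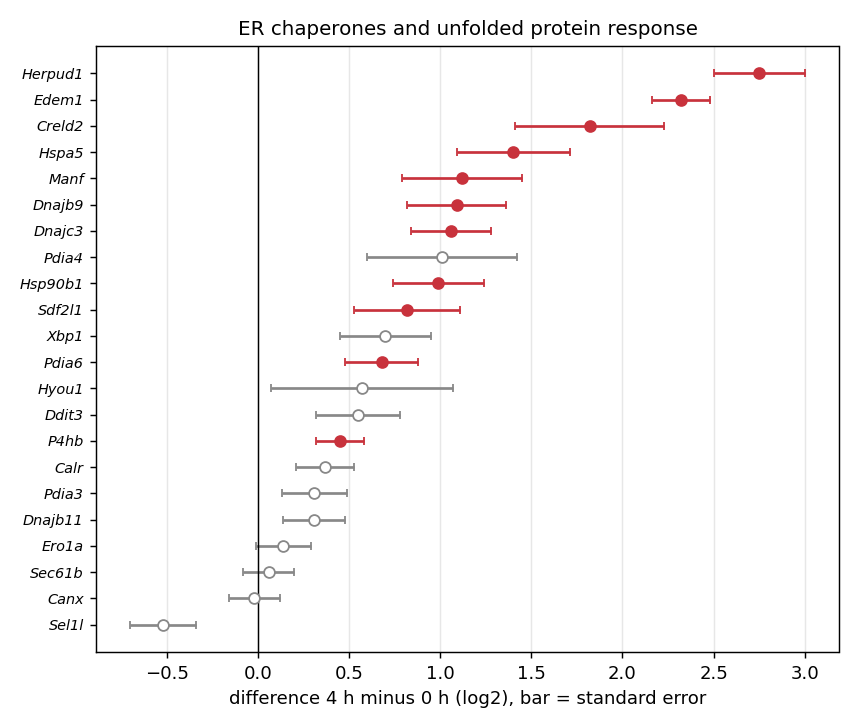
Difference between 4 h and 0 h on the log2 scale, with its standard error, for the 22 tested genes of the ER list; filled red points passed the test and open grey points did not. Herpud1 (2.75) and Edem1 (2.32) lie farthest to the right, and Sel1l (-0.52), Canx (-0.02), Ero1a (0.14) and Sec61b (0.06) lie near or below 0.

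The core of the glucocorticoid response element, written GNACANNNTGTNC and searched on both strands of the same windows, was found in 4 of the 361 promoters of genes that rose (1.11%), in 0 of the 434 of genes that fell and in 17 of the 5978 of all genes tested (0.284%). It was found in 0 of the 25 promoters of the glucocorticoid-induced list that are in the table. These letters were looked for only close to start sites, so the counts say nothing of elements elsewhere. The promoter of C1qb (chr5:154407828-154408077, - strand), a gene of the complement component C1q that rose, is shown since it holds the core, in capitals.
C1qb: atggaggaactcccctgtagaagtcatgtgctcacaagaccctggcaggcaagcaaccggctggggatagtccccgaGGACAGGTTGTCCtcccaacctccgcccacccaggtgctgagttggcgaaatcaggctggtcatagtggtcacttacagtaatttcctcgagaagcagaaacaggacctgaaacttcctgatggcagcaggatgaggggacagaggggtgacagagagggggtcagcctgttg

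The 3 largest rises among all probe sets tested, Fga, Lcn2 and Fgg, were of acute-phase genes. Of 16 acute-phase genes on the array, 8 were tested, of which 5 rose and 0 fell, with a median of 1.88. This compares with 6.08% that rose and 7.26% that fell of all genes tested. The acute-phase genes not tested lay below the filter on the mean level over all libraries. Mean signals of Fga, Lcn2 and Fgg at 0 h were 36.3, 48.7 and 19, also below its level of 52.3. These 3 passed the filter only through libraries in which they were high, so this count is not independent evidence of a direction. Fga, the fibrinogen alpha chain, had 68.5, 11.4, 50.4 and 36.6 at 0 h and 2149, 1863 and 2041 at 4 h. All libraries at 4 h were high (5.52 ± 1.37, or 46-fold, adjusted p = 0.00545). Lcn2, the siderophore-binding protein NGAL and a marker of tubular injury, had 80.5, 47.2, 24.2 and 58 at 0 h and 1733, 1855 and 2053 at 4 h (5.06 ± 0.98, or 33.4-fold, adjusted p = 0.000403). Fgg, the fibrinogen gamma chain, had 40.9, 24.8, 5.04 and 17.7 at 0 h and 902, 595 and 832 at 4 h (4.86 ± 1.41, adjusted p = 0.0183). The groups of these genes did not overlap. Cp, ceruloplasmin, rose by 1.37 ± 0.22 (adjusted p = 3.55e-05), and C3, complement component 3, by 2.39 ± 0.66 (adjusted p = 0.0134). The call of Fgg was lost without 4 h replicate 2 (adjusted p = 0.0603), 4 h replicate 3 (0.0554) or 0 h replicate 3 (0.0519), and that of C3 without 4 h replicate 2 (0.0689). The count was then 3 of 8.

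The large standard errors of Fga, Fgg and Lcn2 came with a wide spread at other times. Of the 45 libraries at other times after the injection, 7 had an Fga signal at or above the lowest 4 h library, and 21 had 1 at or below the highest 0 h library. At 5 h, Fga was 48.5, 4459 and 30.3, and Lcn2 was 198, 3970 and 213, so that replicate 2 stood far above the other libraries of its time. At 7 h, Fga was 55.6, 65.6 and 3999, and at 8 h it was 2652, 107 and 103. Fkbp5 had 660, 464 and 739 at 5 h and 507, 550 and 576 at 7 h, where these libraries did not stand apart upwards. At 8 h, Fkbp5 was 528, 303 and 317, with the highest value in the same library as for Fga. At 4 h all libraries were on the high side. The part of such differences between libraries in the 4 h result was not tested. Hepatocyte markers were dim: Alb, the albumin gene, lay between 29.5 and 51 at 0 h and between 14.3 and 42.9 at 4 h, and Apoa1 at or below 18.1 in every library of both groups. Of 3 hepatocyte markers tested 1 rose, Apoh, from a mean of 75.6 to 189 (adjusted p = 0.00731, and 0.0556 without 4 h replicate 2). The summed signal of the hepatocyte markers ranged from 254 to 344 at 0 h and from 338 to 364 at 4 h.

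**Figure D4:**
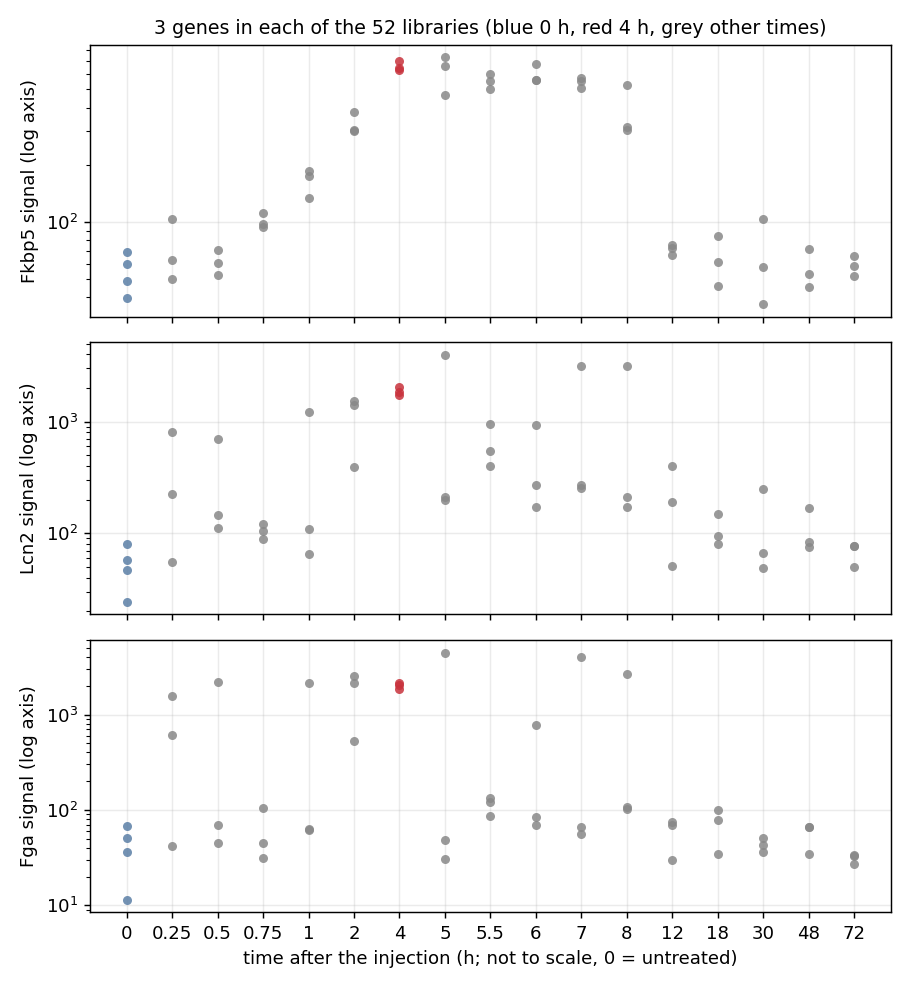
Signal of Fkbp5, Lcn2 and Fga in each of the 52 libraries, by time after the injection, on log axes; points are single libraries, blue for 0 h, red for 4 h and grey for other times. All 3 libraries at 4 h are high for each gene, whereas at 5, 7 and 8 h Fga and Lcn2 each have a single library far above the others of its time.

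Markers of tubular injury were higher in part. Of 18 tested, 7 rose and 0 fell, with a median of 0.66, where 6.08% of all genes tested rose and 7.26% fell. Besides Lcn2, the stable calls were Cdkn1a, the cell cycle inhibitor p21, with 103, 90.6, 65.3 and 102 at 0 h and 416, 805 and 549 at 4 h (2.58 ± 0.42, adjusted p = 3.4e-05), and Vim, vimentin, from a mean of 204 to 490 (1.23 ± 0.25, adjusted p = 0.000823). Spp1, osteopontin, had 2218, 1026, 570 and 354 at 0 h and 3800, 3637 and 3964 at 4 h. Its 0 h libraries differed widely among themselves, yet none reached the 4 h values (2.19 ± 0.71, adjusted p = 0.0356). Timp1, an inhibitor of metalloproteinases, rose by 1.95 ± 0.65 (adjusted p = 0.0403). The call of Timp1 was lost without any single library except 0 h replicate 1 (largest adjusted p = 0.12, without 4 h replicate 2), and that of Spp1 without 0 h replicate 3 or 4 or any 4 h library (largest 0.119, also without 4 h replicate 2). Over the fits that left out 1 library, the count ranged from 3, without 4 h replicate 3, to 6, without 0 h replicate 1. Spp1 and Timp1 were high in the same libraries as Fga at later times. Spp1 was 1315, 6018 and 1638 at 5 h and 952, 477 and 5489 at 7 h. Timp1 was 131, 670 and 61 at 5 h and 110, 99.6 and 905 at 7 h. At 8 h, replicate 1 was again the highest, with 4024 for Spp1 and 387 for Timp1. The part of this in their rise at 4 h was not tested. Havcr1, the injury marker KIM-1, had 217, 59.6, 51.9 and 48.7 at 0 h and 173, 121 and 147 at 4 h. The groups overlapped through 0 h replicate 1, and the difference of 0.86 ± 0.99 did not pass (adjusted p = 0.604).

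Among genes of the extracellular matrix, 7 of 37 rose and 1 fell, where 6.08% of all genes tested rose and 7.26% fell. Ccn2, connective tissue growth factor, had 235, 401, 382 and 500 at 0 h and 2971, 4137 and 3327 at 4 h. The groups were far apart (3.21 ± 0.26, or 9.23-fold, adjusted p = 5.54e-12). Mgp, the matrix Gla protein that inhibits calcification, had 1680, 1043, 1159 and 1467 at 0 h and 3186, 4123 and 3802 at 4 h (1.48 ± 0.24, adjusted p = 2.35e-05), and Lox, which cross-links collagen, rose by 1.72 ± 0.34. The collagens did not pass: Col1a1 gave 0.41, Col3a1 0.55 (adjusted p = 0.0521) and Col4a2 0.78 (adjusted p = 0.0526). The counts were 3 and 0 without 4 h replicate 2.

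**Figure D5:**
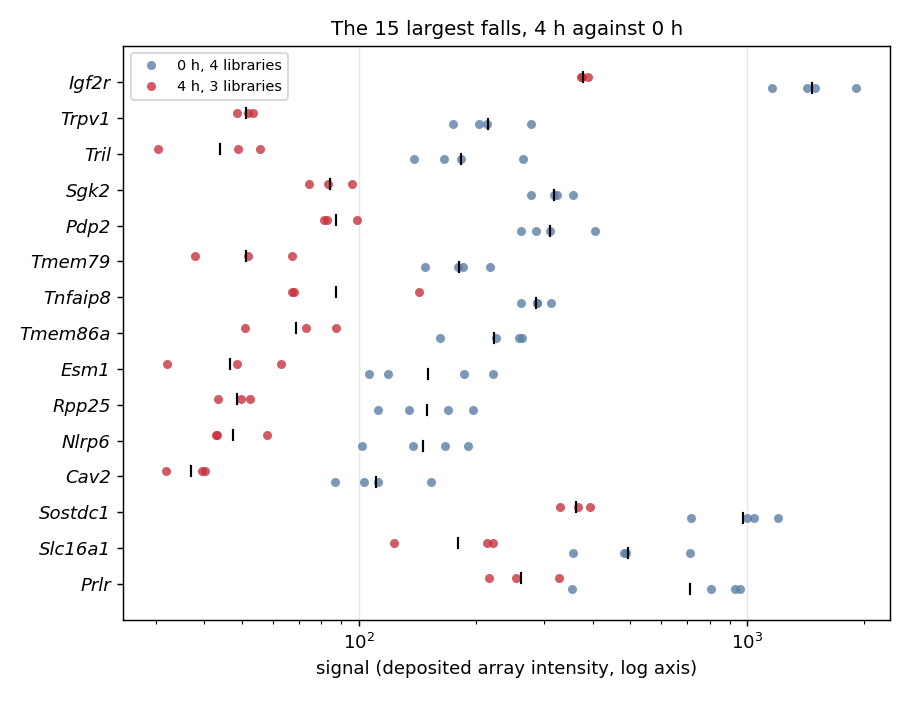
Signals of the 15 genes with the largest falls at 4 h among those whose groups do not overlap, on a log axis; each point is 1 library (blue, 0 h; red, 4 h) and black ticks are group means. In each row the 4 h libraries lie to the left, with Igf2r at 372 to 388 against 1156 to 1898.

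The receptors of the hormone itself were lower. Nr3c1, the glucocorticoid receptor gene, had 210, 195, 222 and 204 at 0 h and 123, 110 and 105 at 4 h. Both groups were tight and did not overlap (-0.84 ± 0.14, adjusted p = 3.6e-05). Nr3c2, the mineralocorticoid receptor gene, had 142, 131, 170 and 108 at 0 h and 65.7, 67.4 and 55.1 at 4 h (-1.03 ± 0.24, adjusted p = 0.00255). Again no library overlapped. Both calls held in each fit that left out 1 library. Hsd11b2, the enzyme that inactivates endogenous glucocorticoid in the collecting duct, did not pass (0.18, adjusted p = 0.57).

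Of 25 genes of sodium and potassium handling, 3 rose and 4 fell, the receptors included, with a median of 0.05. Among all genes tested, 6.08% rose and 7.26% fell. Sgk1, the kinase that keeps the epithelial sodium channel at the cell surface, had 473, 429, 403 and 720 at 0 h and 2960, 3184 and 3362 at 4 h, with no overlap (2.66 ± 0.22, adjusted p = 9.08e-12). Its relative Sgk2 went the other way, with 318, 277, 323 and 355 at 0 h and 74.6, 96.2 and 83.4 at 4 h (-1.82 ± 0.38, adjusted p = 0.001). Sgk3 gave 0.28 and did not pass. Scnn1a, the alpha subunit of the epithelial sodium channel, had 107, 140, 149 and 288 at 0 h and 559, 369 and 470 at 4 h, with no overlap (1.48 ± 0.34, adjusted p = 0.00255). The beta subunit Scnn1b gave -0.14 and the gamma subunit Scnn1g 0.14, and neither passed. Kcnj16, a potassium channel of the basolateral membrane, fell from a mean of 1249 to 687 (-0.85 ± 0.22, adjusted p = 0.007).

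The insulin and IGF axis changed in both directions: of 21 genes 6 rose and 4 fell, where 6.08% of all genes tested rose and 7.26% fell. Igfbp1, a secreted binder of insulin-like growth factors, had 348, 254, 327 and 205 at 0 h and 4157, 5218 and 4156 at 4 h. The groups were far apart (3.98 ± 0.81, or 15.8-fold, adjusted p = 0.000766). At 5 h, Igfbp1 was 1192, 6056 and 467, so that it was highest in the library that stood apart for Fga and Lcn2, while at 2 h all libraries were high, with 3341, 3213 and 4424. The part of that difference between libraries was not tested. Igf2r, the receptor that carries IGF2 and mannose-6-phosphate proteins to lysosomes, had the largest fall of the genes named, with 1156, 1493, 1423 and 1898 at 0 h and 372, 388 and 375 at 4 h (-1.94 ± 0.27, adjusted p = 2.66e-06). Another probe set of Igf2r gave -2.11 (adjusted p = 1.12e-06). Igfbp5 fell from a mean of 1448 to 608 (-1.24 ± 0.17, adjusted p = 2.42e-06), and Sesn1, an inhibitor of mTORC1 like Ddit4, rose from 151 to 378 (1.28 ± 0.22). Prlr, the prolactin receptor gene, gave -1.41 (adjusted p = 0.0174), which was lost without 4 h replicate 2 (0.111), 4 h replicate 3 (0.0539) or 0 h replicate 1 (0.0533), and its other probe sets gave 0.26 and -0.57 and did not pass. Of the list, 4 rose and 2 fell in the absence of 4 h replicate 2.

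Further large falls concerned genes of mixed function. Trpv1, a heat-gated cation channel, had 175, 204, 277 and 214 at 0 h and 53.4, 48.7 and 52 at 4 h (-1.92 ± 0.32, adjusted p = 3.74e-05), and another probe set gave -1.24 (adjusted p = 0.000457). Tmem79 (-1.68 ± 0.23), Tmem86a (-1.59 ± 0.32) and Rpp25 (-1.49 ± 0.24), a subunit of RNase P, fell with all 4 h libraries below all 0 h libraries. Sostdc1, an inhibitor of BMP and Wnt signals made in the distal nephron, had 1199, 1041, 996 and 716 at 0 h and 393, 366 and 330 at 4 h (-1.41 ± 0.38, adjusted p = 0.0121, and 0.0519 without 4 h replicate 2). Among the rises outside the lists, Spsb1, an adaptor of a ubiquitin ligase, had 7.77, 21.1, 6.56 and 5.92 at 0 h and 446, 516 and 464 at 4 h (4.82 ± 0.52, adjusted p = 8.43e-09). Slc25a25, a mitochondrial carrier of ATP and phosphate, had 167, 63.3, 18.2 and 39.7 at 0 h and 963, 1460 and 1153 at 4 h (4.25 ± 0.6, adjusted p = 2.77e-06), and Rasd1, a small GTPase known as induced by dexamethasone, rose by 3.68 ± 0.79 (adjusted p = 0.00128). In each of these the groups did not overlap.

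Of 20 amino acid and sugar transporters, 2 rose and 4 fell, where 6.08% of all genes tested rose and 7.26% fell. Slc2a5, the fructose transporter GLUT5, fell from a mean of 187 to 102 (-0.83 ± 0.21, adjusted p = 0.00827) and kept its call in each fit that left out 1 library. Slc2a2, the glucose transporter GLUT2, had 353, 330, 342 and 297 at 0 h and 134, 156 and 138 at 4 h, without overlap (-1.17 ± 0.34, adjusted p = 0.0185). Its adjusted p was 0.0556 without 4 h replicate 2 and 0.0572 without 4 h replicate 3. Slc38a2, a sodium-coupled transporter of neutral amino acids, rose from 153 to 397 (1.33 ± 0.26), and Slc7a6 from 30 to 119 (1.75 ± 0.38). In the absence of 4 h replicate 2 or of 4 h replicate 3, 2 of the list rose and 2 fell.

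The large gene families of basal metabolism showed next to no calls, where 6.08% of all genes tested rose and 7.26% fell. Of 73 genes of oxidative phosphorylation 0 rose and 0 fell, with a median of -0.06, of 41 ribosomal protein genes 1 rose (median 0.12), and of 36 proteasome subunits 1 rose (median 0.19). The ribosomal gene was Rps28 (0.42, adjusted p = 0.0121, and 0.173 without 4 h replicate 2) and the proteasome gene Psma6 (0.44, adjusted p = 0.00813, and 0.0559 without it).

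The lists of nephron segment markers are short, and over all genes tested 6.08% rose and 7.26% fell. Counts of 0 or 1 in such lists therefore do not set a segment apart from all genes. Of 17 proximal tubule markers 1 passed, Cubn, the cubilin gene (0.57, adjusted p = 0.0241), with an adjusted p = 0.193 without 4 h replicate 2, and of 0.0539 or 0.0504 leaving out replicate 1 or replicate 4 of 0 h. The summed signal of these markers ranged from 33930 to 38760 at 0 h and from 31468 to 39303 at 4 h. Their median difference was -0.05, as over all genes tested. Of 7 thick ascending limb markers, 3 fell and 0 rose, with a median of -0.69. Cldn10, a claudin gene, had 1008, 802, 871 and 767 at 0 h and 464, 416 and 418 at 4 h, without overlap (-0.98 ± 0.18, adjusted p = 0.000155). From the same list Umod (0.17) and Slc12a1, the cotransporter NKCC2 (0.12), did not pass, and without 4 h replicate 2 Cldn10 alone was called. Of 3 distal convoluted tubule markers 1 fell, with a median of -0.55. It was Trpv5, a calcium channel (-0.71, adjusted p = 0.0175), with an adjusted p = 0.459 without 4 h replicate 2 and 0.0527 leaving out 0 h replicate 3. Slc12a3, the cotransporter of the distal convoluted tubule, had 355, 358, 352 and 774 at 0 h and 728, 931 and 1044 at 4 h. Its groups overlapped through 0 h replicate 4 (1.03 ± 0.5, adjusted p = 0.162). Aqp2, the water channel of the collecting duct, gave 0.15 and did not pass, and of 6 principal cell and 3 intercalated cell markers 0 rose and 0 fell by limma.

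Of 10 endothelial markers tested, 4 fell and 1 rose, where 7.26% of all genes tested fell and 6.08% rose. Esm1, a proteoglycan secreted by endothelium, had 106, 119, 186 and 221 at 0 h and 48.5, 63.2 and 32.2 at 4 h (-1.55 ± 0.41, adjusted p = 0.00861, and 0.0614 without 4 h replicate 3). Kdr, the VEGF receptor 2, had 368, 398, 564 and 525 at 0 h and 254, 201 and 193 at 4 h (-1.06 ± 0.3, adjusted p = 0.0154, and 0.079 without 4 h replicate 2, 0.0633 without replicate 3 of that time and 0.0501 leaving out 0 h replicate 3). In both the groups did not overlap. The 1 that rose was Esam, an endothelial adhesion molecule, with 146 to 263 at 0 h and 325 to 390 at 4 h (0.86, limma adjusted p = 0.0312). Its call was lost in several fits without 1 library, with a largest adjusted p of 0.105 without 0 h replicate 1. Pecam1, a general endothelial marker, gave 0.43 and did not pass. The list had 1 fall and 0 rises without 4 h replicate 2, and 2 falls without 4 h replicate 3. The summed signal of the endothelial markers ranged from 2138 to 2695 at 0 h and from 1803 to 2031 at 4 h. Of 6 podocyte markers 2 fell, Synpo, synaptopodin (-0.87 ± 0.17, adjusted p = 0.000399, but -0.39 and adjusted p = 0.153 with overlapping groups by another probe set), and Wt1 (-0.71, adjusted p = 0.0188, and 0.0617 without 4 h replicate 2, 0.069 without 4 h replicate 3), while Nphs1, nephrin, gave 0.64 (adjusted p = 0.0847).

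Of 13 markers of macrophages and neutrophils 6 rose and 1 fell, with a median of 0.93, where 6.08% of all genes tested rose and 7.26% fell. Their summed signal ranged from 2216 to 2871 at 0 h and from 4186 to 4453 at 4 h. The 1 that fell was Aif1, a macrophage marker, with overlapping groups (-0.81, limma adjusted p = 0.0228, and 0.396 without 4 h replicate 2). The genes of complement component C1q rose together: C1qb from a mean of 74 to 244 (1.62 ± 0.27, adjusted p = 3.39e-05), C1qc from 142 to 339 (1.21 ± 0.23) and C1qa from 139 to 302 (1.07 ± 0.26). S100a9, a calcium-binding protein of neutrophils, had 4.15, 14.6, 9.45 and 23.1 at 0 h and 180, 203 and 169 at 4 h, without overlap (3.31 ± 0.89, adjusted p = 0.0108, and 0.0551 without 4 h replicate 2). Other defining markers did not pass, namely Cd68 (0.53), Csf1r (-0.29), Ptprc (0.03) and Tyrobp (-0.15), and Itgam lay at or below 9.48 in every library. In the absence of 4 h replicate 2, or of 4 h replicate 3, 4 of the list rose. Of 4 lymphocyte markers tested 0 rose and 1 fell, the T cell kinase gene Lck (-0.52, limma adjusted p = 0.0396, and 0.327 without 4 h replicate 2). Cd4 gave -0.4 and did not pass. The T cell markers Cd3d, Cd3e and Cd8a were below the filter on dim probe sets. The part of a changed cell makeup in these results was not tested.

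The 9 libraries of 30, 48 and 72 h serve as a reference that does not use the 0 h libraries, although the 3 libraries at 4 h are shared by both comparisons. At 4 h, 768 probe sets were higher than at 30 to 72 h (8.07%) and 1128 were lower (11.8%). Of the 544 higher than 0 h, 472 were also higher than at 30 to 72 h, which is 86.8% of the first list and 61.5% of the second. Of the 736 lower, 588 were lower than at 30 to 72 h, which is 79.9% and 52.1%. Fkbp5 differed by 3.45 from 0 h and by 3.33 from 30 to 72 h, Herpud1 by 2.75 and 2.67, and Igf2r by -1.94 and -1.76. Leaving out 4 h replicate 2 left 348 and 266 of these calls by count.

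Between 2 h and 4 h few probe sets passed: 7 were higher at 4 h (0.0735%) and 12 lower (0.126%) by limma, and 1326 had an unadjusted p under 0.05. Eif4ebp3, a repressor of translation initiation, had 296, 393 and 273 at 2 h and 898, 950 and 1007 at 4 h, without overlap (1.56, adjusted p = 0.0234). At 0 h its mean was 177. Csrp2, a LIM domain protein, had 445, 556 and 347 at 2 h and 810, 1714 and 1063 at 4 h, also without overlap (1.35, adjusted p = 0.0234), and its mean at 0 h was 339. Edn1, endothelin 1, was lower at 4 h than at 2 h, with 125, 94.5 and 98.3 at 2 h and 55, 45.5 and 50.1 at 4 h (-0.97, adjusted p = 0.0234), and at 0 h it had a mean of 56.7. These counts rested on single libraries: 0 higher and 0 lower passed without 4 h replicate 2 or without 2 h replicate 1, whereas 45 and 141 passed without 4 h replicate 1.

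Between 4 h and 5 h, 0 probe sets were higher (0%) and 0 lower (0%) with limma at the threshold, while at an unadjusted p under 0.05 there were 422 and 674. A weighting of the arrays by their quality also gave 0 and 0. Without 4 h replicate 1, 6 were lower, and without 5 h replicate 3, 1 was higher. This says only that no difference passed with 3 libraries at each time.

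Of the 544 probe sets higher at 4 h than at 0 h, 290 had their highest mean at 4 h among all 17 times, and 545 of the 736 lower ones had their lowest mean there. Since they were selected at 4 h, these counts are a description. Sgk1 had its highest mean at 5 h (3444), Edem1 at 5.5 h (1715) and Nfkbia at 0.5 h (1244, against 710 at 4 h), while Ddit4 (1224), Herpud1 (1839) and Fkbp5 (658) had theirs at 4 h.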

How the data were processed

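The authors deposited 1 intensity per probe set and array, on a linear scale; the values themselves show scaling, with a mean after trimming 2% at each end of 150.03 to 150.04 on each array. Which algorithm produced them is not given in the sources used. Of 15923 probe sets on the main array type, 57 controls were left out. Log2(intensity + 7.63) of 52 libraries at 17 times (the 5 h replicate 1 arrays averaged) entered 1 linear model per probe set (limma 3.58.1, R 4.3.3, trended empirical Bayes), with Benjamini-Hochberg adjustment over the 9520 probe sets at or above the 40th percentile of mean level (signal 52.3). The filter used the mean over all libraries, so a gene dim at 0 h could pass through libraries where it was high. The number of arrays limits the precision. Probe sets were named by the platform annotation with symbols brought up to date through GRCr8 identifiers: 12783 probe sets had 1 symbol, 312 several and 2771 none. The brightest tested probe set stood for a gene.

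The genes named are the 15 largest rises and 15 largest falls whose groups do not overlap, the 6 and 6 largest for each other comparison, up to 6 called members of each of 42 lists, and a set of genes of interest; others, such as further list members, were named after their values were seen. Members and lists were chosen with earlier results of these data known. On simulated data for 4 h against 0 h over 9520 probe sets, the fit recovered 32, 165 and 197 of 200 changed probe sets at log2 changes of 0.5, 1 and 2, with 3, 6 and 6 false calls. The simulated noise was normal and independent between probe sets and libraries, with no shift of whole arrays. The real counts depended on 4 h replicate 2, so these false calls need not describe the real data. Replicate numbers were not used to pair the samples. Deviations of libraries with the same number correlated with 0.188, 0.061 and -0.022, and those with different numbers with -0.206 to 0.091. With so few libraries this cannot show that samples of the same number were unrelated. Promoter sequences came from RefSeq (GRCr8). Alternatives covered the pseudocount, the filter, the normalization, the samples in the fit, array weights, robust moderation, a replicate block and leaving out each library. The second array type was not used, having no array at 4 h.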

Additional observations from a re-analysis of the deposited data

Results flagged for a closer look

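Among 151 genes named, 11 had a library at 0 h whose gap to its nearest neighbour exceeded the 95% critical share of the range of the 4 libraries (Dixon); chance gives about 1 in 20. Replicate 1 was the highest for Havcr1 (217) and the lowest for Lamb2 (73) and Ppp2r5e (119). Replicate 2 was the highest for Per1 (44.7), Spsb1 (21.1) and Edem1 (298). Replicate 3 was the lowest for C1qa (79) and Cyp4a8 (1360) and the highest for Slc14a2 (179). Replicate 4 was the highest for Slc12a3 (774) and the lowest for Slc1a1 (452).

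The response at 4 h differed from that at 2 h by the limma test of the difference itself for 12 named genes. Higher at 4 h were Eif4ebp3 (1.56, adjusted p = 0.0234), Csrp2 (1.35, 0.0234), Ctdspl (0.96, 0.035), Pnpla2 (0.91, 0.021), Hsd11b2 (0.87, 0.0472) and Ppp2r5e (0.83, 0.0234). Lower at 4 h were Amph (-1.2, adjusted p = 0.0234), Bpifa5 (-1.2, 0.0234), Cd83 (-1.07, 0.0262), Egr3 (-1.0, 0.0383), Edn1 (-0.97, 0.0234) and Lhfpl2 (-0.88, 0.0234). None of these calls remained without 4 h replicate 2, when 0 probe sets passed.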

How the results depend on the processing

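Against 0 h, array weights gave 1341 higher and 1897 lower probe sets, and omitting arrays lettered b or c gave 310 and 356. A replicate block, for samples with the same number, gave 472 and 604. The lower count was 476 with a filter at the 60th percentile and 407 with median centring. Leaving out 1 library gave 268 to 543 higher and 206 to 970 lower. Against 30 to 72 h, array weights gave 1495 and 2177, no b or c arrays 366 and 481, and the lower count was 674 (60th percentile) and 620 (median centring); leaving out 1 library gave 348 to 795 higher and 266 to 1197 lower. Against 2 h, counts were 12 and 5 (median centring), 1 and 0 (only the compared times), 773 and 959 (array weights), 2 and 0 (no b or c arrays), with 7 lower (60th percentile) and 3 (quantile); leaving out 1 library gave 0 to 45 and 0 to 141. Against 5 h they gave 0 to 1 and 0 to 6. The cause was not tested.

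Of 132 named genes past the threshold, 73 kept the call in all 7 fits without 1 library, and 0 of the 151 reversed under any alternative run. Median centring lost 12 of these calls and quantile normalization 14. With 3 and 4 arrays, changes of 0.5 were mostly missed on simulated data, so genes without a call may still differ. Dim genes, close to background, have the least certain folds.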

Other observations

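Single genes of drug metabolism and glutathione rose: of 38 tested, 6 rose and 0 fell by their brightest probe set, with a median of 0. By the same measure 6.08% of all genes tested rose and 7.26% fell. Another probe set of Gclc, which makes the precursor of glutathione, was lower (-1.38, adjusted p = 0.0438), and its brightest gave -0.92 (adjusted p = 0.0578). Por, the electron donor of the cytochromes P450, had 228, 303, 276 and 245 at 0 h and 1011, 1247 and 968 at 4 h, without overlap (2.0 ± 0.24, limma adjusted p = 8.03e-08). Sult1a1, a sulfotransferase of phenols, had 152, 140, 132 and 181 at 0 h and 1170, 1883 and 1310 at 4 h (3.18 ± 0.34, adjusted p = 5.64e-09), and its mean was higher still at 5.5 h (2358). The glutathione transferases Gstm1 (2.38 ± 0.58) and Gstm2 (1.72 ± 0.35) rose as well, and their near-identical family members could share probes.

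Of 19 heat shock genes of cytosol and mitochondria 5 rose and 0 fell by their brightest probe set, with a median of 0.2. The shares of all genes tested, here and for the calcium list below, were 6.08% that rose and 7.26% that fell. For Hspa9, a mitochondrial chaperone, the brightest probe set gave 0.04 (adjusted p = 0.898), whereas both others were lower (-0.6, adjusted p = 0.0424, and -0.86, adjusted p = 0.0123). Hspb1, a small heat shock protein, had 78.7, 122, 127 and 145 at 0 h and 356, 362 and 312 at 4 h (1.51 ± 0.31, adjusted p = 0.000919), and Hsph1 rose from a mean of 419 to 806 (0.93 ± 0.21). The chaperones Hspd1 (0.01) and Hspe1 (-0.04) did not pass. Without 4 h replicate 2, 2 of the list rose. Of 16 genes of calcium, phosphate and vitamin D handling 0 rose and 4 fell, with a median of -0.41. Pth1r, the parathyroid hormone receptor, had 745, 1056, 871 and 1271 at 0 h and 335, 590 and 436 at 4 h (-1.12 ± 0.29, adjusted p = 0.00774), without overlap. Without 4 h replicate 2, 1 of that list fell, and without 0 h replicate 1, 0 h replicate 3 or 4 h replicate 3, 2 fell.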
